A study of Mus musculus with 2 samples.

Results

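The 10 genes described here are Mcm2, Mcm3, Mcm4, Mcm5, Mcm6, Mcm7, Pcna, Tk1, Rrm1 and Rrm2, which copy DNA or make its building blocks. Every non-control probe of these genes was taken, named through the RefSeq accession of the probe. Each gene had 1 such probe, printed as 1 spot, so 10 probes stand for 10 genes out of 20658 named genes on the arrays, of which 18239 were measured on both. Total RNA of glomeruli, the filtering units of the kidney, was hybridised to Agilent one-colour arrays. The mice were male, 8 months old, and wild type (WT) or Sirpa-/-, a knockout confined by design to podocytes, which wrap the capillaries of the filter. The sources used here do not give the Cre driver, the strain or the number of animals behind each array, and one label text speaks of isolated podocytes where the tissue label says glomeruli. Both groups had received 0.5 ml of pristane, an oil that sets off lupus-like disease, 4 months earlier. No uninjected mice were analysed here. Each group had 1 array, so no difference below has a replicate check or a p-value, and each compares these 2 arrays, not the conditions.

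In the Sirpa check, the gene's only named probe read 11624 in WT and 17315 on the array labelled Sirpa-/-, 1.55-fold higher after scaling. This goes against the label. The sources used here do not say whether the probe lies in the deleted part, and other glomerular cells keep the gene. Each direction given is that of the array so labelled, set against WT. All 10 podocyte markers (among them Nphs1, Synpo and Wt1) were well above background on both. Of 39423 gene probes used, 85.3% and 86.7% were well above background, with 0 saturated spots.

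Before a cell divides, the proteins of Mcm2 to Mcm7 are loaded as a ring of 6 subunits onto replication origins in G1 and unwind DNA in S phase, together with CDC45 and GINS. PCNA is the ring-shaped clamp that holds the polymerases on DNA. Ribonucleotide reductase, built from the large subunit RRM1 and the small, radical-bearing subunit RRM2, turns ribonucleotides into deoxynucleotides, and thymidine kinase 1 (TK1) recycles thymidine. E2F factors drive transcription of many of these genes as cells enter S phase. Podocytes of the healthy adult kidney are largely post-mitotic, while endothelial, mesangial, parietal, tubular and immune cells can divide.

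On the array labelled Sirpa-/-, the nucleotide enzymes Tk1 and Rrm2 were lower by the most. Mcm2, Mcm5 and Pcna were moderately lower, and Mcm3, Mcm4 and Mcm6 were nearly equal to WT. A difference is given as log2, with WT subtracted from the array labelled Sirpa-/-, after each array was divided by its 75th percentile (a processed signal of 1158 on WT and 1109 on the other). Of the 10 genes, 1 was at least 2-fold lower, against 1.67% of all measured genes, and 2 were at least 1.5-fold lower, against 5.27%. None was at least 1.5-fold higher, against 4.35%. Below 0 lay 9 of the 10, against 49.7% of all genes. With scaling on spike-in probes or with normexp background correction it was 7 of the 10, against 34.7% and 34.6%. Normexp also left 0 of the 10 at least 2-fold lower and 1 at least 1.5-fold lower, against 0.433% and 1.86%. As reported, 1.56% of all genes and 0 of the 10 were at least 2-fold higher. All 10 had a processed signal of at least 100 on both arrays. Among the 12368 genes for which this held, 0.841% were at least 2-fold lower, 3.2% at least 1.5-fold lower and 48.6% below 0, with 2.46% and 0.679% at least 1.5-fold and 2-fold higher. The median of the 10 was -0.36, and that of all measured genes 0.00. With spike-in scaling these medians were -0.28 and 0.083, and with normexp -0.29 and 0.074.

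To show what these genes have upstream, the promoter windows of RefSeq (build GRCm38.p6, 250 bases before to 50 after the gene start) were searched. Of the 10 genes, 9 matched by symbol, all but Mcm4. The 250 upstream bases are printed 5′ to 3′ for the genes with the largest differences (Tk1, Rrm2) and for an MCM pair of which Mcm5 was lower and Mcm6 was not. Capitals mark E2F letters (TTTCCCGC, TTTCGCGC, TTTGCCGC, TTTGGCGC or TTCCCGCC) and CCAAT boxes (CCAAT), each on either strand.
Mcm5 (GRCm38.p6, chr8:75109259-75109508, plus strand): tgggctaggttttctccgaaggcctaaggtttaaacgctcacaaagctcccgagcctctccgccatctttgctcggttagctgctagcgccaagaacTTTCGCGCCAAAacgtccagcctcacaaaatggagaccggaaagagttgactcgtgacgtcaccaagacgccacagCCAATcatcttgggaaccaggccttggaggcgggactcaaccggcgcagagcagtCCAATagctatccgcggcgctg
Mcm6 (GRCm38.p6, chr1:128359706-128359955, minus strand): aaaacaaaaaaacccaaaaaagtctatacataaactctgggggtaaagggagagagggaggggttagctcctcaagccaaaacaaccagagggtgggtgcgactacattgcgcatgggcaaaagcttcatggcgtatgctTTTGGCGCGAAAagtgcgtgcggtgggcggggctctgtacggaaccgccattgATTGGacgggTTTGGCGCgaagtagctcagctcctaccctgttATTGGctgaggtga
Rrm2 (GRCm38.p6, chr12:24708004-24708253, plus strand): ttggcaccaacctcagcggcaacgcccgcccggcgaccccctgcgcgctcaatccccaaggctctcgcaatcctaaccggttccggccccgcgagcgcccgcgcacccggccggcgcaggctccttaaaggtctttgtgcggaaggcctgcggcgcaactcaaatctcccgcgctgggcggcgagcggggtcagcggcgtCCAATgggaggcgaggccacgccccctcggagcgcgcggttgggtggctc
Tk1 (GRCm38.p6, chr11:117826015-117826264, minus strand): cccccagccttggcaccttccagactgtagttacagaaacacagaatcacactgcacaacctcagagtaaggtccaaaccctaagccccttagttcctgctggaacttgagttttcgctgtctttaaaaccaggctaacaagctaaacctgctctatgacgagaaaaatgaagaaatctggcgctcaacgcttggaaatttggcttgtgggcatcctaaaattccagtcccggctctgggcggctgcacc

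E2F letters were found in the windows of 5 of the 9 genes (Mcm3, Mcm5, Mcm6, Mcm7 and Rrm1), against 4.46% of the 27025 genes with such a window of 300 bases (3.89% of all 32851 windows). In Mcm5 and Mcm6 a pair of matches on opposite strands overlapped, starting 153 and 110 bases before the start, and Mcm6 had another at 47. In Mcm3 the matches lay at bases 19 to 46 after the start. In the windows of Mcm2, Pcna, Tk1 and Rrm2 these exact letters were absent, which says nothing about E2F itself. CCAAT boxes, the letters bound by NF-Y, stood in 8 of the 9 genes, all but Tk1, against 41.1% of genes (37.4% of windows). The CHR element TTTGAA, a cell cycle element of late genes, stood in 1 of them, Mcm2, against 20.2% of genes (17.9% of windows). GC boxes (GGGCGG) stood in 7, against 38.2% of genes (35.7% of windows). TTCCCGCC shares most of its letters with TTTCCCGC, so their matches can overlap, as they do in Mcm3. Genes with E2F letters had differences from -0.48 to 0.08 and genes without them from -1.24 to -0.45, with Mcm5 below Mcm2 and Pcna. This split was made after the values were seen and has no test.

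**Figure D1:**
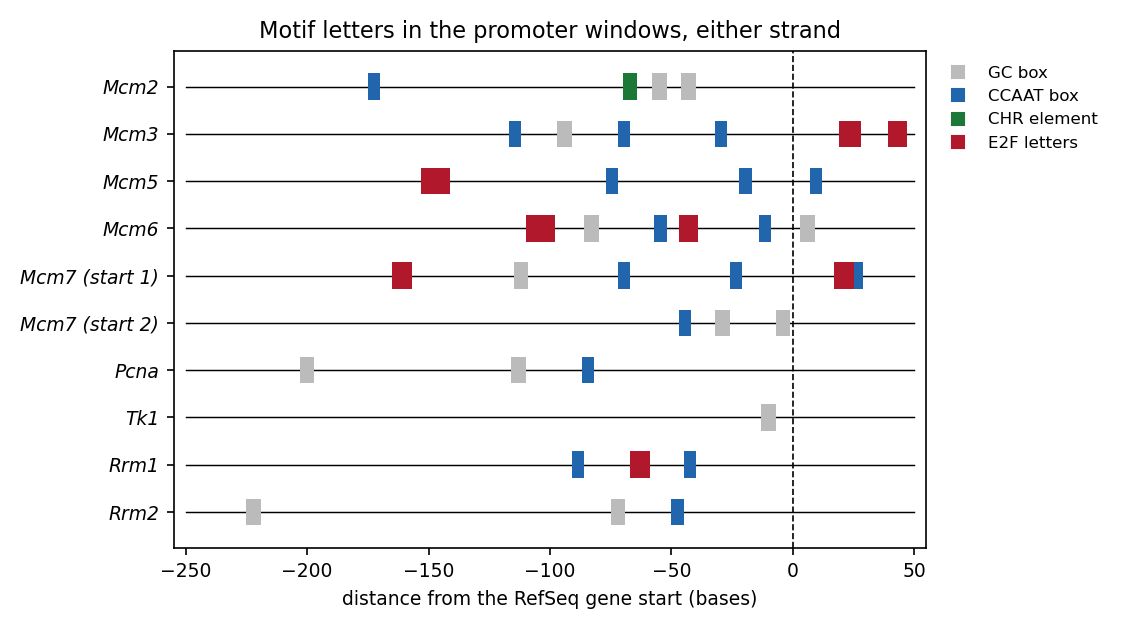
Motif letters on either strand of each promoter window, by distance in bases from the RefSeq gene start, with 1 row per window (Mcm7 has 2). E2F letters (red) stand in 5 of 9 genes, CCAAT boxes (blue) in 8, the CHR element (green) in Mcm2 only among these, and GC boxes (grey) in 7.

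The MCM genes split into 3 that were nearly equal and 3 that were lower to different degrees. Mcm2 had a processed signal of 1220 in WT and 852 on the array labelled Sirpa-/-, a log2 difference of -0.46 (1.37-fold lower). Mcm5 read 596 and 410, a difference of -0.48 (1.39-fold lower). Both lay slightly more than 2.2 times the scanner software's own error of 0.20 (log2) away from 0, an error that covers the single spot and not the animals. Mcm2 and Mcm5 encode neighbouring subunits, whose interface is the gate through which the ring opens around DNA. Mcm7 read 3151 and 2608, a difference of -0.21 (1.16-fold lower), about the size of that error.

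The other MCM subunits were close to 0. Mcm3, the partner of Mcm5 in the ring, read 3461 and 3289, a difference of -0.01 that turned to 0.07 with spike-in scaling and 0.03 with normexp. Mcm4 read 2724 and 2549, a difference of -0.03, which likewise turned to 0.05 and 0.03. Mcm6, which pairs with Mcm2, read 2848 and 2893, a difference of 0.08 and the only one above 0 among the 10. Over the 6 genes the median was -0.12, with 0 at least 1.5-fold lower, against 5.27% of all measured genes. Between the subunits of this single complex, the differences ranged from -0.48 to 0.08.

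Pcna, the sliding clamp, read 18605 in WT and 13052 on the array labelled Sirpa-/-, a difference of -0.45 (1.37-fold lower), or 2.2 times the software error.

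The nucleotide enzymes had the widest range. Tk1, whose mRNA and protein are largely limited to dividing cells, read 1798 in WT and 731 on the array labelled Sirpa-/-, a difference of -1.24 (2.36-fold lower). This was 6.06 times the software error and the only one of the 10 past 2-fold. Rrm2, the subunit that limits ribonucleotide reductase outside S phase, read 919 and 527, a difference of -0.74 (1.67-fold lower), or 3.63 times the error. With normexp, which starts from the median raw signal of the spot instead of the processed signal and adds an offset of 50, these became -0.92 and -0.58, short of 2-fold and 1.5-fold. The median raw signals of Tk1 were 1381.5 and 670, closer to each other than its processed signals. Rrm1, the large subunit, read 1933 and 1534, a difference of -0.27 (1.21-fold lower), and -0.13 with normexp. The Rrm1 difference was 1.33 times the software error.

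**Figure D2:**
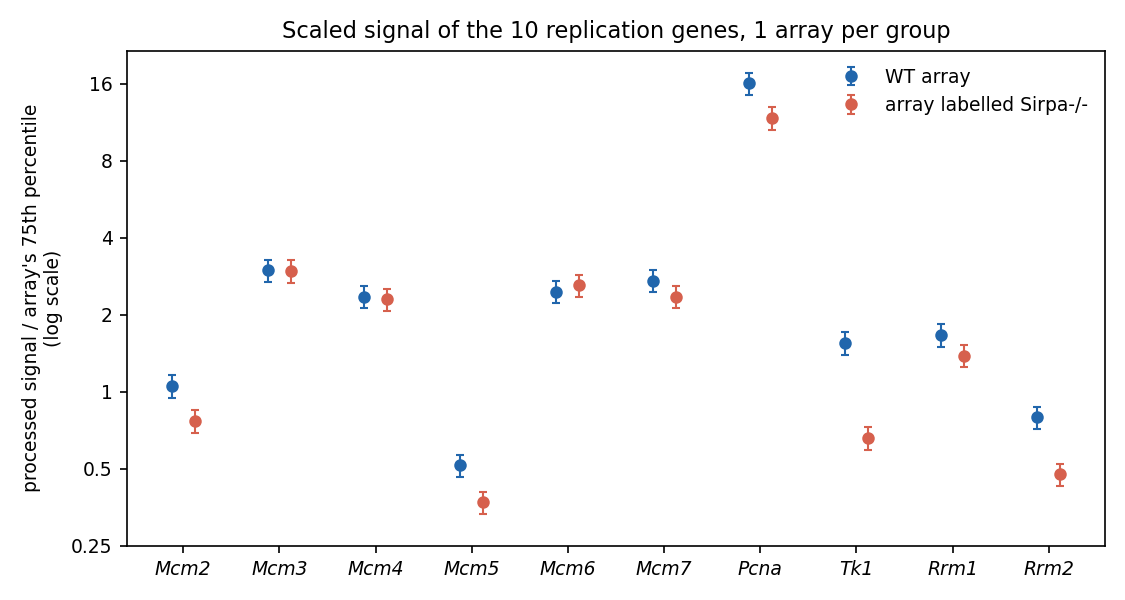
Processed signal of each gene divided by the 75th percentile of its array, on a log axis, with 1 point per array (blue WT, red the array labelled Sirpa-/-) and bars of plus and minus 1 software error. The bars are apart for Mcm2, Mcm5, Pcna, Tk1 and Rrm2 and overlap for Mcm3, Mcm4, Mcm6, Mcm7 and Rrm1. The software error is 0.20 (log2) for every gene, so whether bars overlap follows from the size of the difference. Levels of different probes are not comparable.

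Technical error around these values came from other probes, since each of the 10 genes had a single spot. Over 160 probes spotted 10 times, with signals in the range of the 10 genes (410 to 18605), the log2 difference between the arrays had a median SD of 0.05 for spots at matching positions. It was 0.10 when spots at any position were set against each other. Gaps between probes of the same gene are another measure, not comparable with these SDs. In 1220 genes with a second probe in that signal range, the gap between both probes' differences had a median of 0.11, and 10% of genes exceeded 0.33. Of 21 such genes at least 1.5-fold lower on the brighter probe, 18 (85.7%) lay below 0 on the second, against 40.0% of the other genes. At least 1.5-fold lower there were 9 (42.9%), against 1.42%. Mcm3, Mcm4, Mcm6 and Mcm7 lay within 0.33 of 0, as did Rrm1, and the other 5 genes beyond it. This 0.33 is a gap between probes and not an error limit for a single probe.

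**Figure D3:**
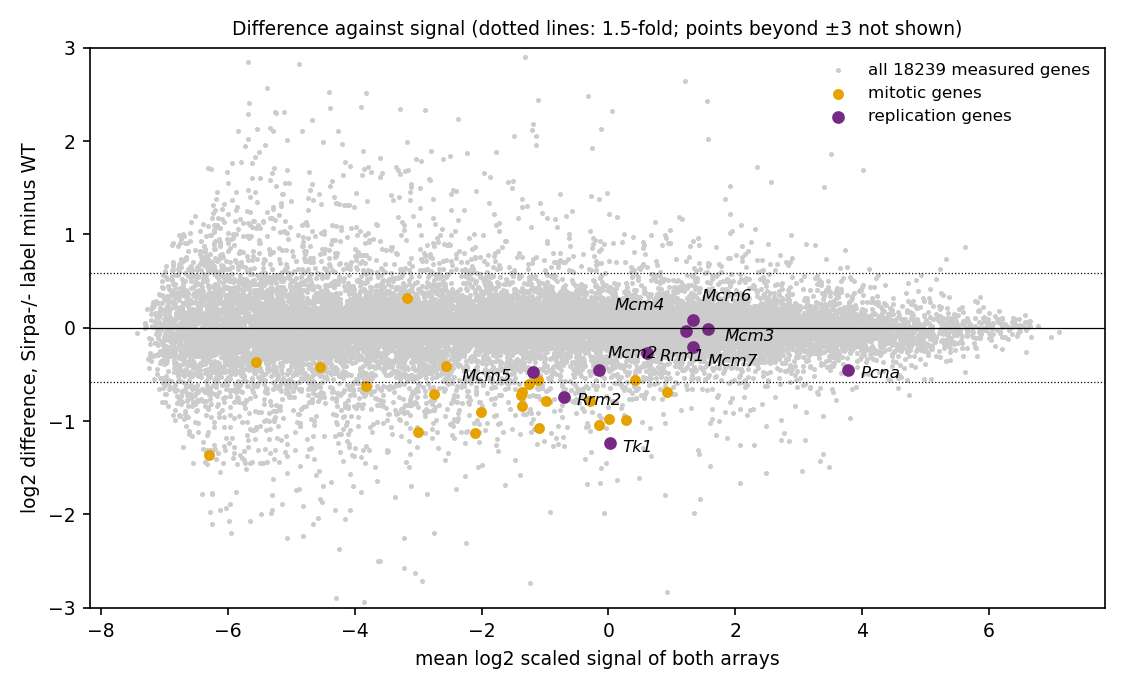
Log2 difference (array labelled Sirpa-/- minus WT) against the mean log2 scaled signal of both arrays for 18239 measured genes (grey), the 10 replication genes (purple, named) and 23 mitotic genes (yellow). Tk1 and Rrm2 lie below the 1.5-fold line among the mitotic genes. Mcm3 and Mcm4 lie close to 0 and turn to slightly above it with spike-in scaling or normexp. Mcm6 lies at 0.08.

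The other genes of the same machinery differed little in their median as a group. Over 8 lists with 104 measured genes for replication and nucleotide synthesis, the median was -0.05, 5 were at least 1.5-fold lower, 0 at least 1.5-fold higher and 62 below 0. The share at least 1.5-fold lower was thus 5 of 104, beside 5.27% of all genes. Of all genes, 4.35% were at least 1.5-fold higher and 49.7% below 0. Below 0 were 45 of 67 measured genes in the 5 machinery lists and 17 of 37 in the 3 nucleotide lists.

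Origin licensing genes, which load the MCM ring, had a median of -0.14 over 13 genes (0.065 with normexp), with 1 at least 1.5-fold lower. That was the loader Cdc6, at 167 in WT and 89.9 on the other array, a difference of -0.83, and -0.94 on its other probe. Gmnn (geminin, which blocks relicensing) gave -0.41, Mcm3ap 0.23 and the origin recognition subunit Orc2 0.33. Of the origin firing genes, with a median of -0.06 over 17, those at least 1.5-fold lower were Ticrr (treslin, at a dim 50.3 and 30.3), at -0.67, and the checkpoint adaptor Clspn (claspin), at -0.64. The GINS subunit Gins3 gave 0.05 and the origin kinase Cdc7 0.06, but -0.48 on its other probe.

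The polymerase and primase genes had a median of -0.05 over 12, with 6 below 0 and 0 at least 1.5-fold different. Pola1, the catalytic subunit of the priming polymerase, gave -0.49 and the polymerase epsilon subunit Pole2 -0.36, while the polymerase delta genes Pold3 and Pold1 gave 0.12 and 0.39. Clamp loader, RPA and Okazaki fragment genes had a median of -0.06 over 17, with Rnaseh2b at -0.36, the nuclease Dna2 at -0.33, the single-strand binding subunit Rpa2 at 0.13 and Rnaseh2a at 0.19 (between -0.11 and 0.02 on its other probes). Genes of chromatin assembly behind the fork had a median of -0.20 over 8, with 7 below 0. Uhrf1, which carries DNA methylation through replication, gave -0.79 but 0.06 on its other probe. The helicase Hells gave -0.56, Chaf1a -0.04 and the histone chaperone Asf1a 0.39.

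Nucleotide genes outside the 10 did not follow Tk1 and Rrm2. Those of deoxynucleotide supply had a median of -0.03 over 17, with 0 at least 1.5-fold different. The lowest were the folate enzyme Mthfd2 (-0.57, at dim signals) and the dUTPase gene Dut (-0.31), and the highest after Tk2 was the deaminase gene Dctd (0.22). Tk2, the mitochondrial thymidine kinase that is made in resting cells too, read 388 and 459, a difference of 0.30. The purine synthesis list had a median of 0.08 over 12, with 1 at least 1.5-fold lower. This was Impdh1, of guanine nucleotide synthesis, at 14291 and 8525, a difference of -0.68. Ppat, the first committed step, gave -0.15 (0.33 on its other probe), Gmps 0.22 and Adsl 0.41. The pyrimidine list had a median of 0.03 over 8, from -0.22 for Uck2 and -0.08 for Ctps to 0.08 for Dhodh and 0.11 for Ctps2.

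Genes that control entry into S phase had a median of -0.12 over 29. Of these, 7 were at least 1.5-fold lower (5.27% of all measured genes) and 0 at least 1.5-fold higher (4.35%). Cdkn2a, a cell cycle inhibitor locus, was lowest at -1.28, at dim signals of 69.6 and 27.4. The S phase cyclin genes Ccne2 (125 and 67.7) and Ccna2 (1020 and 566) gave -0.82 and -0.79. Ccne1 gave -0.25 (0.07 on its other probe), the activator E2f1 -0.01, E2f5 0.24 and the pocket protein gene Rbl2 0.26. The inhibitor Cdkn1a (p21) gave 0.23, and -0.09 on its other probe. The p53 list, to which Cdkn1a also belongs, had a median of -0.02 over 13, with Trp53 at -0.48, Bax at -0.17 and Sesn1 at 0.57. In the replication checkpoint list the median was 0.08 over 13. The nuclease gene Exo1 (164 and 79.9) gave -0.98, while Fancd2 gave 0.41 at dim signals and the mitotic inhibitor Wee1 0.52.

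Mitotic genes stood lower than the 10 replication genes. Of 23, 22 lay below 0 (49.7% of all measured genes), 17 were at least 1.5-fold lower (5.27%) and 5 at least 2-fold lower (1.67%). Their median was -0.72, against -0.36 for the 10. These lists hold different genes on the same 2 arrays, so the gap between the medians is a description. The proliferation marker Mki67 read 1964 in WT and 950 on the array labelled Sirpa-/-, a difference of -0.99, and -0.997 on its other probe. Top2a, a topoisomerase of S and G2 phase, gave -0.71 (219 and 128). The kinase genes Bub1 (-1.13), Aurkb (-1.12) and Plk1 (-1.07) and the motor gene Kif20a (-1.04) were past 2-fold, as was Cenpf (-1.37) at dim signals of 23.6 and 8.78. Ttk gave -0.36 and Bub1b, the only one above 0, 0.32. Tk1 lay within the range of these mitotic genes, while Mcm3, Mcm4, Mcm6, Mcm7 and Rrm1 lay above 22 of the 23. Of these, Mcm3 and Mcm4 turned to slightly above 0 with spike-in scaling and normexp.

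**Figure D4:**
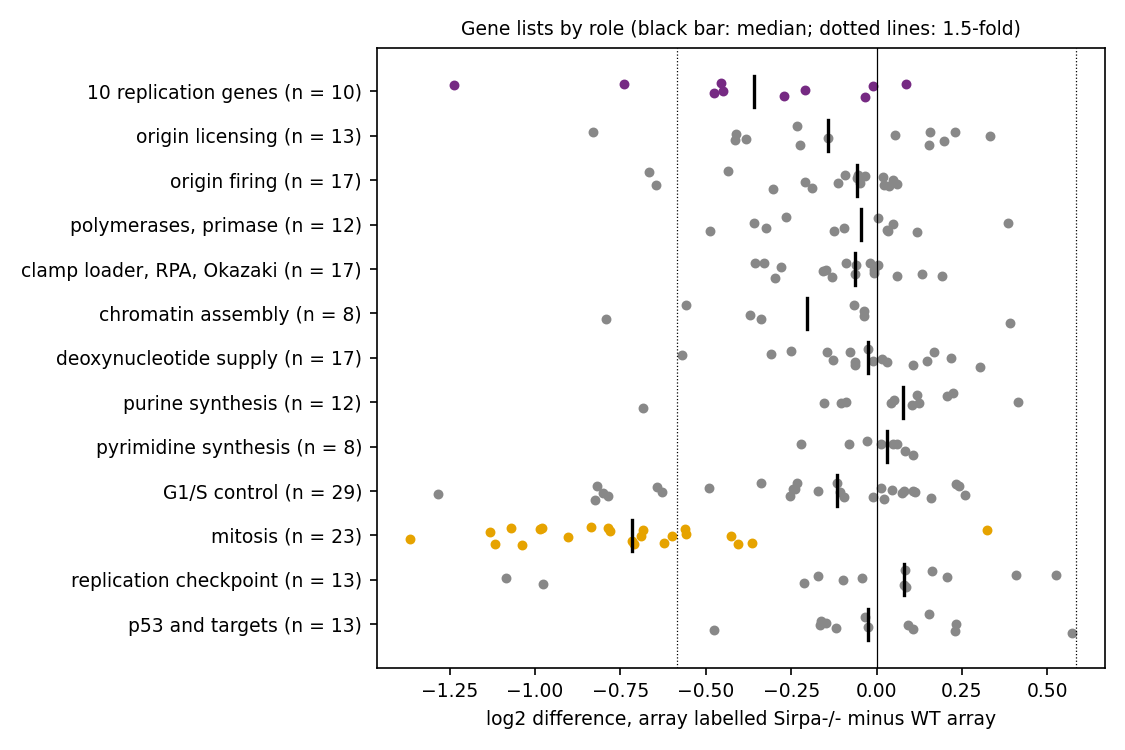
Log2 difference (array labelled Sirpa-/- minus WT) of each measured gene, by list, with the median as a black bar and dotted lines at 1.5-fold. The 10 replication genes (purple, median -0.36) lie between the mitotic genes (yellow, -0.72) and the other replication and nucleotide lists (grey), whose medians run from -0.20 to 0.08. The licensing, firing, polymerase, clamp and deoxynucleotide medians turn to above 0, and the pyrimidine median to below 0, with spike-in scaling or normexp. These settings put the median of all measured genes at 0.083 and 0.074.

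Markers of other cell types also differed between the arrays, and in glomerular RNA fewer cells of a type and less RNA per cell cannot be told apart. Proximal tubule markers were lower with the replication genes: 10 of 10 lay below 0, against 49.7% of all measured genes, with a median of -0.45. Their summed processed signal, before scaling, was 27796 in WT and 19456 on the other array. Moving the other way, B cell markers had 10 of 10 above 0 (summed signal 1312 and 4354), T cell markers 8 of 10 (2480 and 2837) and distal nephron markers 9 of 10 (3021 and 5057). Erythroid markers had 5 of 7 measured above 0 (18235 and 53297), among them 3 globin genes, while the erythroid precursor gene Klf1 gave -0.66 at dim signals. Macrophage and monocyte markers had 5 of 9 below 0 (13215 and 13840), with a median of -0.02, from Adgre1 at -0.91 to Ccr2 at 0.42. Podocyte markers had 2 of 10 below 0 (457567 and 482022) and endothelial 7 of 10 (282046 and 252279). Mesangial and contractile markers had 4 of 10 (128660 and 106068) and parietal epithelial 2 of 7 (5217 and 4730). Each sum is of unscaled signals and follows its brightest probes, such as Ncam1 at 3222 of the parietal 5217 in WT. For the macrophage, mesangial and parietal lists the sums went against the counts, so they give no direction for the cell type. Measured markers had to be well above background on both arrays, so none could be at 0. The part of these cell types in the lower replication and mitotic signals was not tested.

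Of the 9 other processing settings, 3 (no filter, a signal of at least 100 and the mean of a gene's probes) cannot move a gene with 1 bright probe and returned the same values. In the other 6, 5 genes (Mcm2, Mcm5, Pcna, Tk1 and Rrm2) kept a difference of -0.37 or lower. Tk1 ranged from -1.25 to -0.92, Rrm2 from -0.76 to -0.58, Mcm5 from -0.50 to -0.40, Mcm2 from -0.47 to -0.38 and Pcna from -0.46 to -0.37. Mcm7 and Rrm1 stayed below 0, at most -0.13 each. Mcm6 stayed above 0 in these 6, from 0.07 to 0.17. Mcm3 and Mcm4 were below 0 in 4 of the 6. With spike-in scaling and normexp, where they lay above 0, the median of all measured genes was 0.083 and 0.074. In the authors' deposited value table Tk1 gave -1.25 and Rrm2 -0.75.

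**Figure D5:**
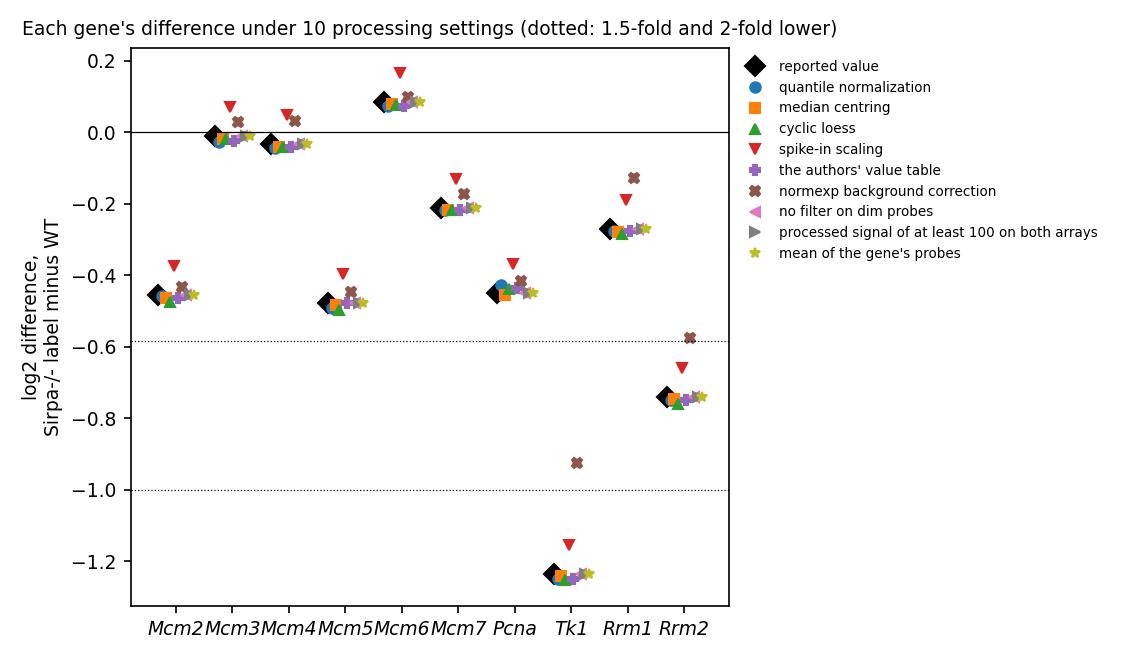
Log2 difference (array labelled Sirpa-/- minus WT) of each gene as reported (black diamond) and under 9 other settings (coloured marks), 3 of which return the reported value, with dotted lines at 1.5-fold and 2-fold lower. Tk1 stays between -1.25 and -0.92 and Mcm6 between 0.07 and 0.17, while Mcm3 and Mcm4 turn from just below to just above 0 with spike-in scaling and normexp.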

How the data were processed

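Each group had 1 one-colour (Cy3) array, from 0.25 µg of RNA per the labels' protocols. The deposited scanner files hold intensity per spot: background-subtracted, spatially detrended processed intensity with its error, made with Agilent Feature Extraction 11.0.1.1 per the file headers, while the submitters' processing notes name 9.1. The scanner files also hold the median raw signal and median local background of each spot, and quality flags of 0 or 1, per the file headers. As an alternative served the table of log2 values deposited by the authors, whose columns share a median of 6.50. How it was normalized is unknown here, and its scale and direction were checked against the scanner values (across probes, r = 0.994 with the same array and 0.986 with the other).

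Unmarked spots of a probe were averaged as log2, and each array's 75th percentile over gene probes was subtracted. Measured probes had over 50% of spots flagged well above background, on WT and the other array alike. Names came from the unversioned RefSeq accession (27231 of 28681 matched), and the brightest measured probe stands for a gene. No test was made with 1 array per group. Genes were counted past 1.5-fold and 2-fold, beside all measured genes. The genes named were the 10, Sirpa, the 2 highest and 2 lowest of each list, any at least 2-fold different, and 7 fixed cell cycle genes; some genes this rule names are not reported here. The members and lists were chosen with earlier results of these data known. The scaling and the fold counts were tested on simulated probe values, changed only for genes with 1 probe. Averaging of spots, the background filter, the other settings and the motif search were not part of this. limma 3.58.1 (R 4.3.3) gave quantile, cyclic loess and normexp values (normexp on the median signal and median local background of each spot, offset 50, since the files hold no mean signal), and Python 3.11.15 did the rest. The other settings tried were median centring, 6 spike-in probes, no filter, a signal of at least 100, and the mean of a gene's probes. Array number and signal over background limit precision.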

Additional observations from a re-analysis of the deposited data

How the results depend on the processing

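Of 234 values under the 9 alternatives, 225 kept to within the technical SD of 0.10 (counts to within 1.5 times); of these, 42 belong to 3 settings that cannot move the 10 genes. The others came from 2 settings, and 0 values reversed past a 1.5-fold call. With normexp, 0 genes were at least 2-fold lower and 1 at least 1.5-fold lower, against 0.433% and 1.86% of all genes; Tk1 gave -0.92, Rrm2 -0.58 and Rrm1 -0.13. The licensing, chromatin and mitotic medians were 0.065, -0.069 and -0.57, and the chromatin median was -0.34 at a signal of at least 100. All genes at least 1.5-fold lower numbered 961 (54.8% of calls) as reported, 339 (44.4%) with normexp, 746 (42.2%) with spike-in scaling, 396 (56.6%) at a signal of at least 100 and 1488 (50.8%) without a filter; those at least 2-fold lower numbered 304, 79, 247, 104 and 613. Normexp changed the input signal and the offset together, and the part of each was not tested. No paired analysis was possible because each group had 1 array.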

Other observations

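The following genes were singled out after their values were seen. Among the E2F genes, the activator E2f2 gave -0.82 (223 in WT, 121 on the array labelled Sirpa-/-), and the atypical repressors E2f7 and E2f8 gave -0.64 (0.08 on the other probe of E2f7) and -0.80. E2f3, E2f4 and E2f6 gave -0.17 (-0.50 on the other probe of E2f3), 0.01 and -0.11. The partners of the MCM ring in the active helicase lay nearer to 0 than Mcm2 and Mcm5. Cdc45 gave 0.02, Gins1 -0.19, Gins2 -0.21 and Gins4 0.04, with Cdc45 (91.8 and 89.0) and Gins2 (87.6 and 72.6) at dim signals. Gins1 and Gins2 lay farther from 0 than Mcm3, Mcm4 and Mcm6. Rrm2b, the subunit that replaces RRM2 in resting cells, read 1586 and 1637, a difference of 0.11 (0.46 on its other probe), beside -0.74 for Rrm2. Tyms, of thymidylate synthesis, gave -0.08, beside -1.24 for Tk1.

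The nearest measured genes on either side of the 10 in the annotated order, 20 in all, had a median of 0.01. Below 0 lay 9, against 49.7% of all measured genes. At least 1.5-fold lower was 1 (5.27% of all), and at least 1.5-fold higher were 3 (4.35%). Afmid and Syngr2 beside Tk1 gave 0.00 and -0.06, Cys1 and Mboat2 beside Rrm2 0.25 and -0.18, and Tpra1 and Podxl2 beside Mcm2 0.02 and -0.06. Hmox1 beside Mcm5 gave -0.59 and Tmem230 beside Pcna -0.36. Tk1 and the mitotic gene Birc5 (-0.98) have 1 measured gene between them, Afmid. Pcna and Sirpa both lie on chromosome 2, with 46 measured genes between them.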
